A study of Drosophila melanogaster with 27 samples.

Results

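The regions described here are places in the Drosophila larval brain genome where FruC was mapped but none of the 4 proteins mapped beside it (Caf-1, Su(z)12, Trl and Su(H)) had a peak. FruC regions were taken as FruC-Myc replicate 1 peaks sharing at least 1 bp with a replicate 2 peak, merged with those replicate 2 peaks, and a region was kept if it overlapped no peak of the 4 partner proteins in either replicate. Of 4975 FruC regions, 1849 were kept (37.2%, 95% Wilson interval 35.8 to 38.5%), and the other 3126 overlapped a peak in 1 or more of the 8 partner libraries. The regions were thus chosen by the positions of FruC-Myc and partner peaks, so this count is a description, and the Wilson intervals given throughout cover counting error only.

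The data came from CUT&RUN, in which an antibody tethers a nuclease to the DNA its target sits on and the released fragments are sequenced. All libraries were made from homogenates of whole 3rd instar larval brains carrying brat11/Df(2L)Exel8040, a brat-null combination in which extra type II neuroblasts accumulate, and they therefore hold every cell type of those brains. The fruC-null brains (brat11/Df(2L)Exel8040; fruC-DelC/fruAj96U3) were profiled for H3K27ac, H3K4me3 and H3K27me3 beside control brains (brat11/Df(2L)Exel8040; fruC::myc), with 2 replicates each and 25 brains per sample. The control brains, which carry a Myc tag on FruC, were also profiled for Myc, FruCOM (an antibody to the part shared by Fru proteins), Caf-1, Su(z)12, Trl and Su(H) with 50 brains per sample and 2 replicates each, and for H3K9me3 with 25 brains per sample. Each sample pooled brains, and the FruCOM pair is the only measurement of Fru that did not choose the regions.

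Fru proteins are zinc finger transcription factors with a BTB domain, known best for their part in sexually dimorphic neurons, and the C isoform carries its own zinc finger end. Su(H) is the DNA-binding protein of the Notch pathway, which maintains neuroblasts in an undifferentiated state. Trl, also called GAGA factor, binds GA-rich DNA at many promoters and Polycomb elements, and Su(z)12 and Caf-1 are core subunits of Polycomb Repressive Complex 2 (PRC2), the enzyme that deposits H3K27me3. A protein without a listed peak may still be present below the caller's threshold, since the depth of each library is unknown from the peak lists.

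The reference sequence around the FruC-Myc replicate 1 summit is shown for 6 strongly bound regions, because these carry FruC peaks high in both replicates with no partner peak. All 6 are 120 bp long, run 5′ to 3′ on the forward strand of the RefSeq copy of assembly BDGP6 (dm6) and stand in lower case. Capitals mark the words GAGAG (bound by Trl), GGTCACAC (M1BP, a factor of housekeeping promoters) and GCCAT (the core word of the Polycomb recruiter Pho), or their reverse complements, wherever they fall.
ebd1: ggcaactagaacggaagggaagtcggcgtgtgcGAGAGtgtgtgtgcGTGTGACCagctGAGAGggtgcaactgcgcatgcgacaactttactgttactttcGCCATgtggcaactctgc
Ten-a: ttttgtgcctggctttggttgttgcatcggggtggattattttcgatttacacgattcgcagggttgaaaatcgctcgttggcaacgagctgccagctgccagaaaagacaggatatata
spi: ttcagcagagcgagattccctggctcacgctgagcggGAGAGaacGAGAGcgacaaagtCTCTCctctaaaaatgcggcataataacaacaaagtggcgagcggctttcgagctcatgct
sqz: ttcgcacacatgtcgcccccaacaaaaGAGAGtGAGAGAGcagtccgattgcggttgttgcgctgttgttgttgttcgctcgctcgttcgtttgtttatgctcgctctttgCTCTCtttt
svr: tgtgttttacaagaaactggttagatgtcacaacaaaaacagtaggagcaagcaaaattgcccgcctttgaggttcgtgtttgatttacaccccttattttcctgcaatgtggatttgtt
ph-p: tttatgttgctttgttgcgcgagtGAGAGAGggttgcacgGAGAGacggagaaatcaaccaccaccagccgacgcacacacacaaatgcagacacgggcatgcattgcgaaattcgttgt

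The ebd1 stretch lies at chr3L:685617-685736 in the promoter, the spi stretch at chr2L:19572649-19572768 in the promoter and the svr stretch at chrX:498545-498664 in the promoter. The Ten-a stretch lies at chrX:12212738-12212857, the sqz stretch at chr3R:19165742-19165861 and the ph-p stretch at chrX:2135559-2135678, each in an intron. GAGAG stood in the ebd1, spi, sqz and ph-p stretches, while the Ten-a and svr stretches held none of the words searched. The ebd1 stretch was the only one of the 6 to hold GGTCACAC, here as its reverse complement.

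FruC peaks without a partner were weaker and narrower than those with one. The −log10 Q-value, the caller's measure of how unlikely a peak is under its background, had a median of 37.6 in FruC-Myc replicate 1 at no-partner regions (quartiles 24.1 and 55.5), against 82.3 at regions with a partner. In replicate 2 the medians were 6.89 at no-partner regions and 12.5 at regions with a partner. Fold enrichment at the summit had a median of 7.07 without a partner and 9.69 with one in replicate 1, and of 6.02 without and 7.90 with one in replicate 2. The median width was 284 bp without a partner and 382 bp with one. Strong regions were few without a partner, the highest −log10 Q-value being 185 in replicate 1 and 33.3 in replicate 2, against 3057 and 998 at regions with a partner. Regions in H3K9me3 peaks were kept in both sets. These strength values came from the peaks that chose the regions and were not tested.

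**Figure D1:**
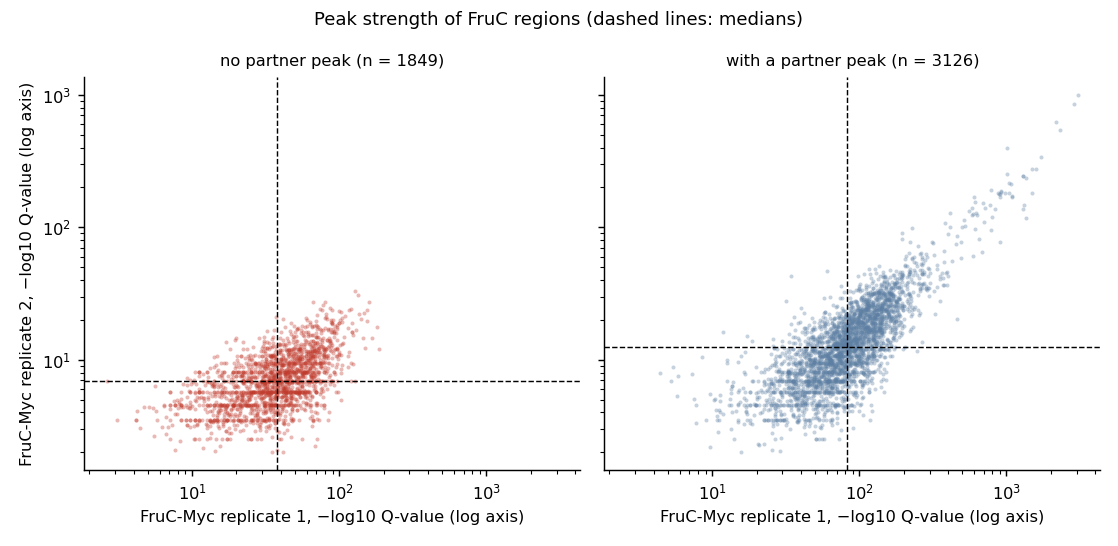
−log10 Q-value of each FruC region in FruC-Myc replicate 1 (x axis, log scale) and replicate 2 (y axis, log scale), 1 point per region, no-partner regions on the left and regions with a partner on the right, dashed lines at the medians. No-partner regions end at 185 and 33.3, while the strong tail along the diagonal holds regions with a partner.

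The FruC-Myc replicates were unequal, with 15563 peaks in replicate 1 and 5174 in replicate 2, and 99.3% of replicate 2 peaks but 32.0% of replicate 1 peaks overlapped the other list. Replicate 2 therefore set how many regions there were, and with all replicate 1 peaks taken as regions the no-partner count was 10872. The partner lists were shorter, with 611 and 513 peaks for Su(H), 1141 and 1516 for Trl, 3268 and 2261 for Su(z)12 and 2748 and 1741 for Caf-1 (replicates 1 and 2). Su(z)12 replicate 1 was the only partner library at 267 FruC regions, Caf-1 replicate 1 at 238 and Trl replicate 2 at 133, so these lists removed the most regions by themselves.

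Most no-partner regions lay far from any partner peak. The median distance to the nearest partner peak was 5525 bp, with 206 regions (11.1%) within 500 bp and 871 (47.1%) within 5000 bp. The nearest FruC region with a partner was a median of 8183 bp away. At the edge of the rule, a region within sba, 545 bp after its nearest start site, lay 2 bp from a Trl replicate 1 peak. A region upstream of snRNA:7SKa, which encodes the 7SK RNA that holds P-TEFb inactive, lay 3 bp from a Trl replicate 2 peak. Just outside the rule, a region in the promoter of lz, a Runx transcription factor gene, shared 11 bp with a Trl replicate 1 peak. A region within Abd-B near lncRNA:CR46267 shared 22 bp with a Trl replicate 2 peak. The sba region had −log10 Q-values of 26.5 and 7.49 in FruC-Myc replicates 1 and 2, the snRNA:7SKa region 34.5 and 5.57, the lz region 41.9 and 5.35, and the lncRNA:CR46267 region 149 and 17.3.

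No-partner regions were found less at promoters and more in introns. A region counted as promoter if its centre fell within 1000 bp before or 100 bp after a start site. Promoters held 701 no-partner regions (37.9%, interval 35.7 to 40.1%) and 1623 regions with a partner (51.9%), where all FruC regions stood at 46.7%. Introns held 603 no-partner regions (32.6%) and 709 regions with a partner (22.7%), against 26.4% of all FruC regions. Intergenic sequence held 343 (18.6%) and 504 (16.1%), against 17.0% of all. Termination sites held 108 no-partner regions (5.8%) and exons 94 (5.1%), near the 5.4% and 4.5% of all FruC regions. The promoter share was lower without a partner in each band of replicate 2 −log10 Q-value, at 35.1% against 54.6% under 5, 39.8% against 58.3% from 5 to 10, 36.8% against 50.6% from 10 to 20, and 35.7% against 45.5% at 20 and over, the last with 28 no-partner regions. Regions are not replicates of a condition, so no test was run on these shares.

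The median distance to the nearest start site was 1233 bp at no-partner regions and 528.5 bp at regions with a partner. The 200 bp just upstream of a start site held 394 no-partner regions (21.3%) and 889 regions with a partner (28.4%). The next stretch upstream, from 200 to 500 bp, held 85 (4.6%) and 297 (9.5%). Both sets thus peaked just upstream of start sites, and they differed most in the first 500 bp upstream.

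**Figure D2:**
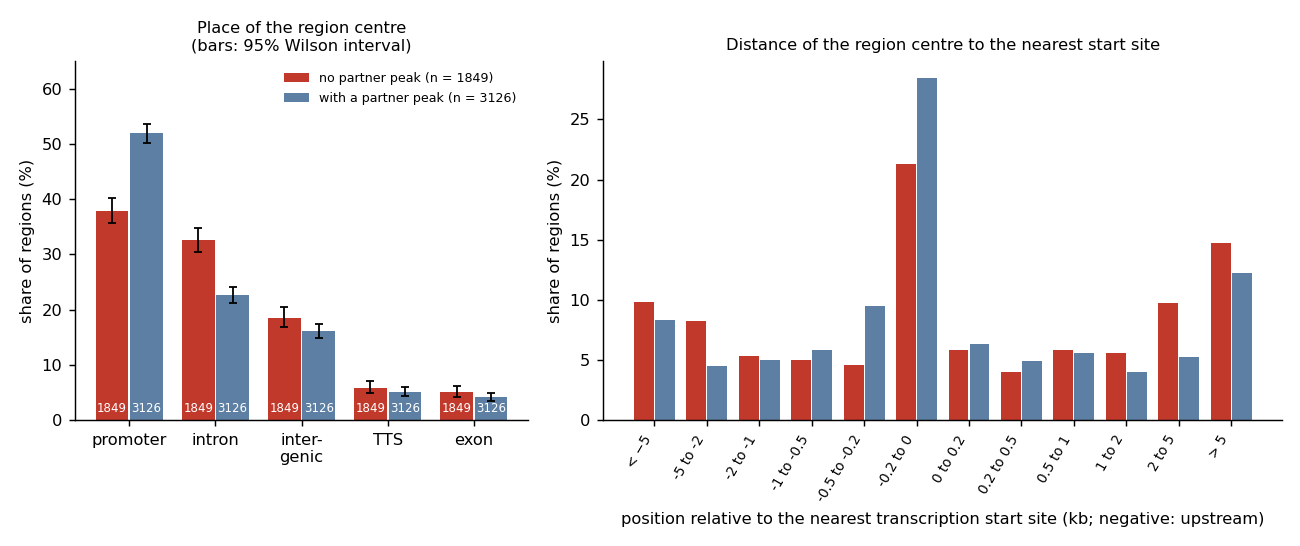
Left, share of regions (y axis, %) by the place of the region centre (TTS, transcription termination site), red without and blue with a partner peak, error bars 95% Wilson intervals. Right, share of regions (y axis, %) by position relative to the nearest transcription start site (x axis, kb). Promoters held 37.9% of no-partner regions against 51.9% of those with a partner, and introns 32.6% against 22.7%.

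No-partner regions were spread over the chromosomes, at 38.8% of FruC regions on 2L, 35.7% on 2R, 37.1% on 3L, 38.3% on 3R and 35.1% on X. On chromosome 4, the small and largely heterochromatic chromosome, 45 of 83 FruC regions had no partner (54.2%, interval 43.6 to 64.5%). On the Y chromosome 10 of 41 had none (24.4%, interval 13.8 to 39.3%), and on the mitochondrial genome 0 of 12 (interval up to 24.2%).

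The regions were nearest to start sites of 1475 genes, and 292 of these had 2 or more no-partner regions. Regions with a partner were nearest to 2073 genes, and 570 genes had both kinds, being 38.6% of the first group and 27.5% of the second. The other 905 genes were nearest to no-partner regions alone. The nearest gene is a label of position and need not be the gene a region acts on. Among 13981 protein-coding genes, 1171 had a no-partner region (8.38%) and 1744 a region with a partner (12.5%), which are the backgrounds for the counts below.

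In lists of neuroblast and lineage genes the shares with either kind of region stood above these backgrounds, and most of these genes had FruC regions with a partner as well. In the type II lineage and commitment list 11 of 15 genes had a no-partner region and 14 had one with a partner. In the temporal and ecdysone timing list the counts were 11 and 15 of 16 genes, and in the neuroblast stemness list 8 and 14 of 15. The stemness list also counts ase, whose protein type II neuroblasts lack, and brat, which initiates differentiation in their progeny. The Notch pathway list had no-partner regions at 5 of 22 genes (Ser, Su(H), neur, dx and Su(dx)) and regions with a partner at 13. These lists were drawn up with results of these data known and hold many genes with long surrounding sequence, so the counts are descriptions and were not tested.

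Lists of other functions varied. The cell cycle list had no-partner regions at 5 of 24 genes, among them stg, the Cdc25 phosphatase, with 2, CycD with 2 and E2f1 with 3. The Polycomb group list had them at 5 of 18 genes (ph-p, ph-d, Psc, Su(z)2 and pho), the Hox list at 3 of 8 (pb, Antp and Abd-B) and the Trithorax list at 1 of 16, fs(1)h. The neuron marker list stood at 4 of 18 and the glia marker list at 3 of 11. Splicing genes stood at 2 of 18, mitochondrial respiration at 2 of 16, translation factors at 0 of 14 and cytoplasmic ribosomal proteins at 4 of 92, against 2, 3, 5 and 11 genes with a partnered region in the same 4 lists. Splicing (11.1%) and ribosomal protein genes (12.0%) thus stood near the 12.5% background for regions with a partner. Against the 8.38% no-partner background, shares were 37.5% for Hox, 27.8% for Polycomb, 27.3% for glia, 22.2% for neuron and 20.8% for cell cycle genes. Shares were 12.5% for respiration, 11.1% for splicing, 6.25% for Trithorax, 4.35% for ribosomal protein genes and 0% for translation factors. Regions with a partner stood at 6 Hox, 6 Polycomb, 6 glia, 4 neuron, 7 cell cycle and 6 Trithorax genes.

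Within the neuroblast stemness list, the strongest no-partner region lay 3588 bp upstream of ase, in an intron of CG32816 (chrX:456936-457381). The ase gene encodes a proneural bHLH factor of type I neuroblasts. The ase region had −log10 Q-values of 101 and 19.8 in FruC-Myc replicates 1 and 2 and of 12.5 and 5.10 in FruCOM replicates 1 and 2, and its nearest partner peak, of Trl, was 2248 bp away. At mira, whose product carries cell fate determinants into the budding progeny, a region at the start site (chr3R:19934996-19935195) had 96.5 and 18.4 in FruC-Myc and 11.7 and 4.96 in FruCOM. Both regions were thus called in all 4 Fru libraries. At wor, a Snail family factor of neuroblasts, a region 1384 bp upstream had 63.5 and 8.69 in FruC-Myc and 14.4 and 5.27 in FruCOM and overlapped an H3K9me3 peak. At tll, a nuclear receptor gene, 2 upstream regions had FruC-Myc values of 63.6 and 11.3 and of 25.5 and 8.94, and the first of these alone had a FruCOM peak, in replicate 1 only (7.82).

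Among lineage and commitment genes, pros, a homeodomain factor that ends neuroblast divisions in the progeny, had an intronic region with 59.1 and 13.9 in FruC-Myc and 4.73 and 4.64 in FruCOM. Regions at pnt, an ETS factor of the type II lineage, numbered 3 with replicate 1 values of 73.5, 24.5 and 12.9, at opa, a zinc finger factor of intermediate neural progenitors (INPs), 2 with 73.5 and 18.2, and at ey, a Pax6 factor of old INPs, 2 with 74.5 and 30.6. None of these 7 regions overlapped a FruCOM peak in either replicate, and 4 of them overlapped an H3K9me3 peak. At scro, an NK2 homeobox gene of late INPs, a region 20607 bp from the start site had 71.9 and 12.0 in FruC-Myc and 3.33 in FruCOM replicate 1.

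Among timing genes, an intronic region of svp, a COUP-TF type nuclear receptor, had 80.6 and 9.63 in FruC-Myc and 17.1 and 8.03 in FruCOM. At Syp, an RNA-binding protein of old neuroblasts, 2 intronic regions had 60.8 and 17.9 and 32.4 and 13.7 in FruC-Myc, and both were called in both FruCOM replicates. Eip75B, an ecdysone-induced nuclear receptor gene, had 6 no-partner regions, tied for the most at any gene, beside 9 with a partner. The strongest, in an exon 208 bp from a start site (chr3L:17999493-17999732), had 77.4 and 25.8 in FruC-Myc and 15.9 and 7.16 in FruCOM, whereas the other 5 stood at 3.44 to 6.00 in FruC-Myc replicate 2. Of those 5, 1 was called in both FruCOM replicates and 1 in replicate 2 alone.

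Outside these lists, heph, the fly polypyrimidine tract binding protein, also had 6 no-partner regions, all in introns, and 1 of them was called in both FruCOM replicates (13.0 and 10.5). The junction protein gene pyd had 5, CG30089 had 4 and the cadherin gene CadN had 4.

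The 8 strongest no-partner regions outside H3K9me3 peaks, ranked by the lower of the FruC-Myc values, lay at ebd1, Ten-a, Roc2, spi, Eip75B, sqz, svr and ph-p. The ebd1 region, in the promoter of a cofactor gene of Wingless signalling, had 134 and 30.7 in FruC-Myc and 9.54 and 3.44 in FruCOM. The spi region lay 109 bp upstream of a start site of spi, the gene for an EGF receptor ligand. It had 80.0 and 27.2 in FruC-Myc and 21.7 and 9.06 in FruCOM. The sqz region, in an intron of a zinc finger gene of neuronal identity, had 86.5 and 24.8 in FruC-Myc and 14.8 and 6.31 in FruCOM. FruC and FruCOM were thus called together at all 3.

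The svr region, at a carboxypeptidase gene, had 73.4 and 24.1 in FruC-Myc and 10.2 and 4.78 in FruCOM, and its nearest partner peak was 21594 bp away. The ph-p region, in an intron of a gene for a subunit of Polycomb Repressive Complex 1, had 76.7 and 23.9 in FruC-Myc and 7.28 and 5.41 in FruCOM. The Ten-a region, in an intron of a teneurin gene of synaptic partner matching, had 66.7 and 27.3 in FruC-Myc and 4.29 in FruCOM replicate 1, with no replicate 2 peak. Roc2, a RING protein of cullin ubiquitin ligases, was the exception among the 8. Its region at the start site had 159 and 27.3 in FruC-Myc and no FruCOM peak in either replicate.

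FruCOM support can also be read from its own strongest peaks. Of no-partner regions called in both FruCOM replicates and outside H3K9me3 peaks, the 8 with the largest lower FruCOM value lay at Vha16-1 (a subunit of the vacuolar proton pump), drl (a Wnt5 receptor of axon guidance), nolo, lncRNA:CR45533, lncRNA:CR45755, hbt, Qsox2 (a sulfhydryl oxidase) and CG31612. The Vha16-1 region had 19.6 and 20.3 in FruCOM and 91.4 and 16.4 in FruC-Myc, and its nearest partner peak was 355 bp away. The drl promoter region had 19.5 and 24.0 in FruCOM and 78.5 and 11.8 in FruC-Myc. At lncRNA:CR45533 the values were 39.9 and 16.2 in FruCOM and 24.1 and 4.58 in FruC-Myc, and the nearest partner peak lay 104058 bp away. Of the 8, 6 were promoters, where promoters held 37.9% of all no-partner regions. Among all no-partner regions, however, promoters were called in both FruCOM replicates less often than intronic and intergenic regions.

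FruCOM peaks were found at fewer of the no-partner regions than of the regions with a partner, in both replicates. FruCOM replicate 1 had a peak at 617 no-partner regions (33.4%, interval 31.3 to 35.6%) and at 2399 regions with a partner (76.7%), with 60.6% of all FruC regions as the background. Replicate 2 had a peak at 320 (17.3%, interval 15.7 to 19.1%) and at 1943 (62.2%), against 45.5% of all. Both replicates had one at 246 no-partner regions (13.3%) and at 1839 regions with a partner (58.8%), against 41.9% of all. Neither replicate had one at 1158 (62.6%) and at 623 (19.9%), against 35.8% of all. With every FruC-Myc replicate 1 peak taken as a region and replicate 2 left out, the share called in both FruCOM replicates was 2.99% without a partner and 44.1% with one. The FruCOM lists held 4201 and 2867 peaks, and the 2 replicates differed by less than the 2 kinds of region did.

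Peak strength moved with this difference, and within bands of FruC-Myc replicate 2 −log10 Q-value it was smaller but present. Under 5, FruCOM replicate 1 had a peak at 17.7% of no-partner regions against 47.5% with a partner, and replicate 2 at 8.2% against 30.0%. From 5 to 10 the shares were 30.6% against 64.0% in replicate 1 and 13.0% against 42.8% in replicate 2. From 10 to 20 they were 57.4% against 81.0% and 36.3% against 66.7%. At 20 and over, replicate 1 had a peak at 21 of 28 no-partner regions against 95.6% of 800 with a partner, and replicate 2 at 18 of 28 (64.3%) against 89.1%. Width moved with the partners too, and with overlaps judged only in 200 bp at the summit, a setting chosen after seeing the data, both FruCOM replicates had a peak at 13.5% of no-partner regions and 57.8% of regions with a partner.

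**Figure D3:**
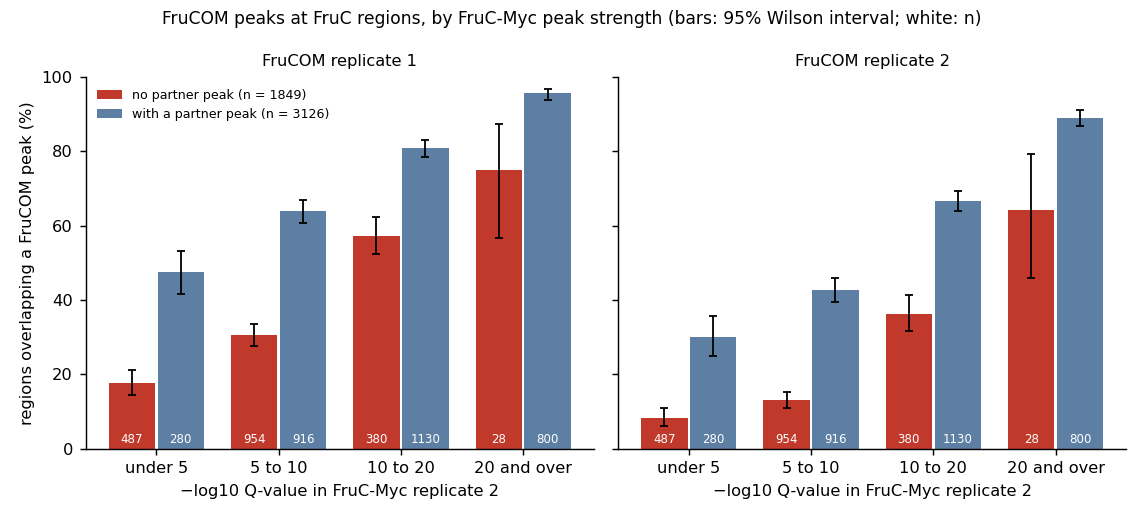
Share of FruC regions overlapping a FruCOM peak (y axis, %) by −log10 Q-value band in FruC-Myc replicate 2 (x axis), FruCOM replicate 1 on the left and replicate 2 on the right, red without and blue with a partner peak, error bars 95% Wilson intervals, white numbers the regions in each bar. The red bars are taller at greater strength and lie below the blue bars in every band of both replicates, and the interval is wide for the 28 no-partner regions at 20 and over.

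FruCOM support differed among the no-partner regions themselves. Both replicates had a peak at 8.8% of no-partner promoters and 16.9% of no-partner intronic and intergenic regions, against 51.4% and 68.0% of the same places with a partner. Regions supported by both had medians of 59.1 and 10.5 in FruC-Myc replicates 1 and 2, and regions supported by neither had 32.2 and 5.85. Where a FruCOM peak was present, its median −log10 Q-value was 6.36 in replicate 1 and 5.36 in replicate 2 without a partner, against 12.1 and 9.55 with one. Support also went with nearness to a partner peak. FruCOM replicate 1 had a peak at 45.1% of the 206 no-partner regions within 500 bp of one and at 28.1% of the 978 beyond 5000 bp, and replicate 2 at 20.4% and 14.0%.

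Over all FruC regions, the FruCOM share climbed with the number of partner libraries that had a peak. No-partner regions stood lowest, and regions with 1 library had 55.3% in FruCOM replicate 1 and 36.4% in replicate 2. Regions with 4 had 89.5% and 73.9%, and all 139 regions with 8 had a peak in both. Of those 139 regions, 72.7% overlapped an H3K9me3 peak, against 12.3% of no-partner regions. The median replicate 2 −log10 Q-value climbed alongside, at 6.89 with no library, 8.26 with 1 and 45.2 with 8. The library names of FruCOM, Su(H) and Trl share a prefix in the lists, as do those of Su(z)12 and Caf-1, and what a prefix stands for is not stated. Both FruCOM replicates had a peak at 13.3% of no-partner regions. The share was 34.3% of 289 regions with Su(H) or Trl only and 45.0% of 1532 regions with Su(z)12 or Caf-1 only. In the same order, the median FruC-Myc replicate 2 −log10 Q-value was 6.89, 9.05 and 9.98, so peak strength differed among these sets too. Whether the prefix bears on the FruCOM shares was not tested.

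**Figure D4:**
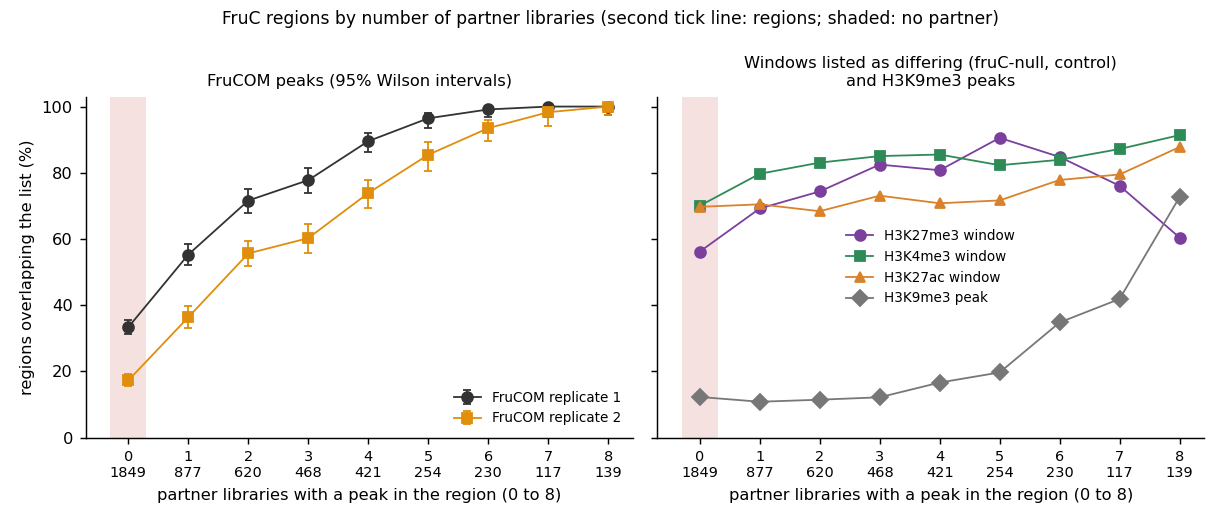
FruC regions by the number of partner libraries with a peak (x axis, 0 to 8, with the number of regions under each). Left, share with a FruCOM peak in replicate 1 (black) and replicate 2 (orange), bars 95% Wilson intervals, from 33.4% and 17.3% with no library up to 100% with 8. Right, share overlapping a window listed as differing between fruC-null and control brains in H3K27me3, H3K4me3 or H3K27ac, or an H3K9me3 peak, where the H3K27me3 share is 56.2% with no library, 90.6% with 5 and 60.4% with 8.

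The histone tables list windows that diffReps picked out as differing in a mark between fruC-null and control brains. Most listed windows, but not all, passed the authors' significance threshold. Only their positions were used, without direction or size of the change, so an overlap says that a region lies at a listed difference and gives no level of the mark, and sequence that carries the mark alike in both genotypes need not be listed. The lists held 26743 windows for H3K27ac, a mark of active promoters and enhancers, 23033 for H3K4me3, a mark of active promoters, and 20658 for H3K27me3, covering 28555, 32678 and 24741 kb of genome.

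Windows listed for a difference in H3K27me3 were found at fewer no-partner regions, while those listed for H3K27ac were found at nearly the same share. H3K27me3 windows overlapped 1039 no-partner regions (56.2%, interval 53.9 to 58.4%) and 2392 regions with a partner (76.5%), against 69.0% of all FruC regions. H3K4me3 windows overlapped 1295 (70.0%) and 2603 (83.3%), against 78.4% of all. H3K27ac windows overlapped 1289 (69.7%) and 2258 (72.2%), against 71.3% of all. The H3K27ac order depended on how overlap was judged, with 58.9% of no-partner regions and 56.7% of regions with a partner when the window had to cover the region centre.

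All 3 window lists met at 622 no-partner regions (33.6%) and at 1566 regions with a partner (50.1%), against 44.0% of all. None of the 3 met at 134 (7.2%) and at 70 (2.2%), against 4.10% of all. Windows of H3K27ac and H3K4me3 without H3K27me3 met at 353 no-partner regions (19.1%) and 376 regions with a partner (12.0%), against 14.7% of all.

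The lower share with a listed H3K27me3 window was seen at each peak strength and in each place. In bands of FruC-Myc replicate 2 −log10 Q-value the shares were 48.7% without a partner against 63.2% with one under 5, 56.0% against 68.0% from 5 to 10, 65.5% against 80.0% from 10 to 20 and 67.9% against 86.0% at 20 and over. At promoters they were 52.6% against 76.6%, and in intronic and intergenic sequence 56.9% against 75.8%. Regions with Su(H) or Trl only stood at 73.4%, and regions with Su(z)12 or Caf-1 only at 71.8%. Among no-partner regions, H3K27me3 windows overlapped 71.8% of those within 500 bp of a partner peak and 51.1% of those beyond 5000 bp, and 72.8% of those called in both FruCOM replicates against 51.7% of those called in neither. For H3K4me3 windows the shares lay closer at promoters (84.7% against 90.8%) than in intronic and intergenic sequence (59.0% without a partner against 73.9% with one).

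**Figure D5:**
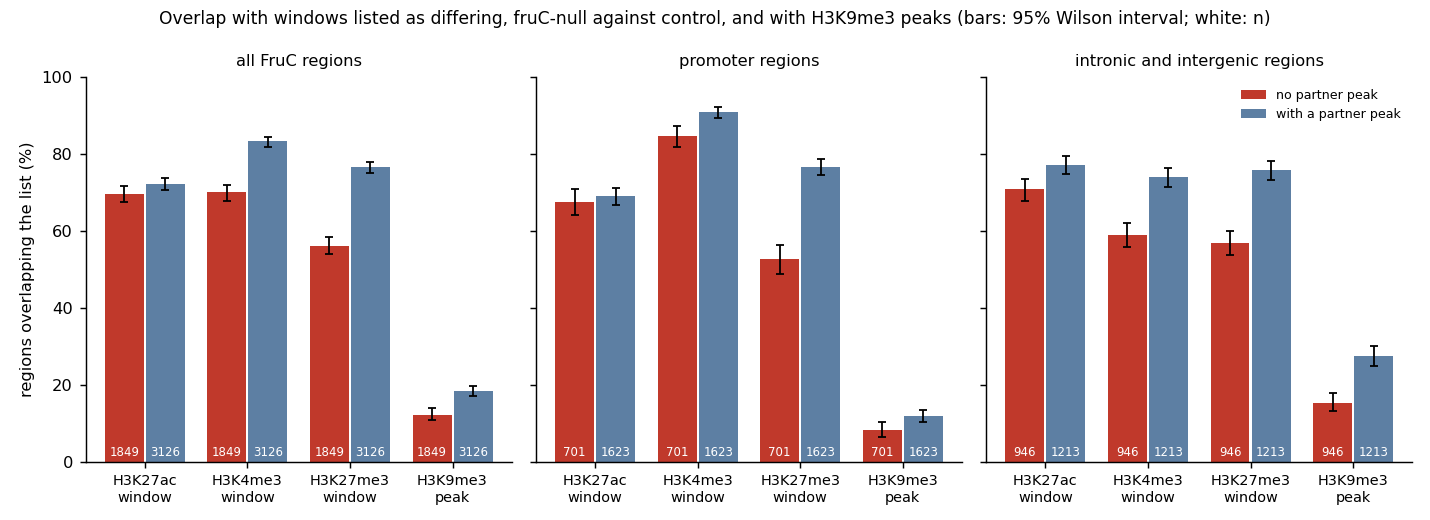
Share of regions (y axis, %) overlapping a window listed as differing between fruC-null and control brains in H3K27ac, H3K4me3 or H3K27me3, or an H3K9me3 peak, for all FruC regions, promoters, and intronic and intergenic regions, red without and blue with a partner peak, error bars 95% Wilson intervals, white numbers the regions in each bar. The H3K27me3 bars stand apart in all 3 panels (56.2% against 76.5% overall), and the H3K27ac bars lie close together at promoters.

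H3K9me3, a mark of heterochromatin, had 1 list of 17154 peaks and so no replicate spread. Its peaks overlapped 227 no-partner regions (12.3%, interval 10.9 to 13.9%) and 573 regions with a partner (18.3%), against 16.1% of all FruC regions. With 1, 2 and 3 partner libraries the share was 10.8%, 11.5% and 12.2%, no higher than the no-partner share. It climbed from 16.6% with 4 libraries to 72.7% with 8, so the difference lay in regions with many partner libraries. From 5 to 20 on the replicate 2 −log10 Q-value scale the shares were 12.1% without a partner and 13.0% with one, a difference within counting error. No no-partner region (0 of 1849) and 41 regions with a partner overlapped H3K9me3 peaks with a −log10 Q-value above 100 merged within 3000 bp. On chromosome 4, 26.7% of the 45 no-partner regions overlapped H3K9me3 peaks, and on the Y chromosome 50% of the 10. The share was not taken by chromosome for regions with a partner, so these values allow no comparison.

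Short words of known binding sites were searched on both strands in 200 bp at the summit, and a match is a description, not a site. GAGAG, the Trl word printed in capitals in the ebd1, spi, sqz and ph-p stretches, stood in 797 no-partner regions (43.1%, interval 40.9 to 45.4%) and 1654 regions with a partner (52.9%), against 49.3% of all FruC regions and 24.9% of 19275 windows of the same length at start sites. By replicate 2 −log10 Q-value the GAGAG shares were 39.2% without a partner against 44.6% with one under 5, 44.5% against 48.5% from 5 to 10 and 42.6% against 54.2% from 10 to 20, and the order was the other way at 20 and over, with 19 of 28 no-partner regions (67.9%) against 59.0%. Regions with Su(H) or Trl only held it at 68.2%, and regions with Su(z)12 or Caf-1 only at 44.5%, near the no-partner share. GTGGGAA, the Su(H) word, stood in 3.6% of no-partner regions and 3.1% of regions with a partner (3.30% of all, 2.24% at start sites). GCCAT stood in 32.2% and 32.5% (32.4% of all, 30.7% at start sites), GGTCACAC in 3.0% and 3.6% (3.34% of all, 5.67% at start sites) and TATCGATA, the element of the housekeeping factor DREF, in 3.1% and 3.8% (3.56% of all, 6.43% at start sites). Over all strengths the GAGAG share lay between that of start sites and that of regions with a partner, and the other 4 words were found at like shares in both kinds of region.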

How the data were processed

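CUT&RUN peak lists and histone window tables of 27 brain samples were used as the authors deposited them, and the IgG sample was not used. The methods name cutadapt for trimming, bowtie2 and assembly BDGP6 for alignment and, on short fragments of each factor replicate, MACS2 for peaks. The deposited peak lists give a position, a summit, a fold enrichment (a ratio) and a −log10 Q-value for each peak, as the authors' caller wrote them. H3K9me3 was deposited as 1 list. The authors compared H3K27ac, H3K4me3 and H3K27me3 between fruC-null and control brains with diffReps, and the deposited tables hold the windows it listed as differing, with their positions, log2 fold changes, adjusted p-values and gene annotations, of which only positions were used. Columns of other series numbered 0. The files give no read totals, so depth is unknown.

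Overlap required 1 bp unless stated. No region was removed for lying in H3K9me3 peaks or in the ENCODE Blacklist, whereas the paper describes removing both from its factor peaks. Places and nearest start sites came from Ensembl release 115, sequence from RefSeq, with pseudogenes and transposable elements left out. Python 3.11.15, numpy 2.4.6 and matplotlib 3.10.9 were used, and 7 of 7 checks of merging, overlap, placement and motif search gave the known answers. Merging and overlap were checked on simulated regions, placement on annotated start sites and motif search on short test strings. Regions were named by a rule: the 8 strongest no-partner regions by the lower FruC-Myc value, the 8 strongest by the lower FruCOM value (both outside H3K9me3 peaks), the 5 genes with most regions, up to 12 genes of 4 lists by FruC-Myc replicate 1 value, and the 2 regions nearest to either side of the rule's edge. Other genes named from the lists were chosen after their counts were seen. Sequences were printed for the strongest of these outside 2R, without UTRs. The members, the 14 gene lists and the comparisons were chosen with earlier results of these data known. No test was run, because regions are not replicates and each factor antibody has 2 libraries of 1 genotype.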

Additional observations from a re-analysis of the deposited data

How the results depend on the processing

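The no-partner share lay below that of regions with a partner in 18 of 18 alternatives for promoters, H3K4me3 and H3K27me3 windows, 20 of 20 for FruCOM peaks in both replicates, 17 of 17 for H3K9me3 peaks and GAGAG, and 16 of 18 for H3K27ac windows. H3K27ac was higher without a partner where the window had to cover the region centre (58.9% against 56.7%) and in 200 bp at the summit, the setting chosen after seeing the data (66.7% against 65.7%). With libraries left out in turn, values at no-partner regions ranged from 1853 to 10872 in number, from 37.9% to 48.1% for promoters, from 2.99% to 33.4% for FruCOM, from 10.3% to 12.4% for H3K9me3, from 63.9% to 70.2% for H3K27ac, from 68.2% to 71.6% for H3K4me3, from 42.9% to 57.6% for H3K27me3 and from 37.3% to 44.6% for GAGAG. Leaving out FruC-Myc replicate 2 gave 10872 regions, 48.1% promoters, 2.99% FruCOM, 10.3% H3K9me3, 63.9% H3K27ac, 42.9% H3K27me3 and 37.3% GAGAG, since every replicate 1 peak then counted. FruCOM replicates taken singly gave 33.4% (replicate 1) and 17.3% (replicate 2), and leaving out Su(z)12 replicate 1 or Caf-1 replicate 1 gave 15.2% and 15.3%.

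Keeping FruC-Myc peaks with a −log10 Q-value above 10 in both replicates left 408 no-partner regions, with FruCOM at 33.6% (73.5% with a partner) and H3K27me3 at 65.7% (82.5%). From 5 to 20 in replicate 2, FruCOM stood at 15.4% and H3K27me3 at 58.7%. With partner peaks above 5 only, FruCOM stood at 19.4%, H3K27me3 at 60.1%, GAGAG at 45.8% and promoters at 40.4%, and FruCOM peaks above 5 gave 7.14%. Promoters from 500 bp upstream held 31.2%, and 100 bp windows gave GAGAG at 32.2%. Without H3K9me3 regions, H3K27ac stood at 71.8% and H3K27me3 at 53.2%. With windows that cover the region centre, H3K27me3 stood at 50.9% and H3K4me3 at 65.4%. H3K9me3 peaks above 100, merged within 3000 bp, overlapped 0 no-partner regions. The causes of these shifts were not tested. No paired analysis was possible because every value is a count or share of regions and comes from no test. Peak lists give no depth, so a missing peak sets no limit on binding.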

Other observations

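Small RNA genes were nearest to 47 no-partner regions. Small nucleolar RNA genes were nearest to 14 no-partner regions (0.757%) and 9 regions with a partner (0.288%), against 0.462% of all FruC regions. Spliceosomal and related small nuclear RNA genes were nearest to 11 (0.595%) and 5 (0.160%), against 0.322% of all, and transfer RNA genes to 22 (1.19%) and 31 (0.992%), against 1.07% of all. These counts are small and were not tested. The 14 small nucleolar RNA regions fell at 12 genes, 6 of them lay within 500 bp of the start site, and listed H3K27me3 windows overlapped 12, where 69.0% of all FruC regions had one. The small nuclear RNA regions included U1, U4, U5 and 7SK genes, FruCOM replicate 1 had a peak at 5 of the 11 and replicate 2 at 1, where 60.6% and 45.5% of all FruC regions had one. These genes have near-identical copies, so the reads behind such peaks may be split among copies. Ribosomal RNA genes were nearest to 1 no-partner region (0.0541%) and 32 regions with a partner (1.02%).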
